A study of Mus musculus with 12 samples.

Results

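The domains described here are the broadest stretches of H3K27 acetylation in normoxic mouse mesenchymal stem cells (MSCs). H3K27ac intervals called in normoxia were joined across gaps of 1000 bp or less, and every joined domain of 20000 bp or more was kept, which gave 749 of 12544 domains (5.97%). The members were therefore selected on their H3K27ac width in normoxia, and that width is a description with no test. The cells were bone-marrow MSCs from wild-type male C57BL/6N mice of 3 to 5 months, isolated from hind-limb bone, expanded in hypoxia, sorted by FACS and then kept for a week in 2% O2 (hypoxia) or 21% O2 (normoxia). The labels place the FACS step on day 12 and do not say which animals or cultures gave which library. H3K27ac, H3K4me3 and input chromatin were each sequenced in 2 libraries per oxygen level, 12 libraries in 6 groups, and the 2 libraries of a mark and oxygen level were reduced by the authors to 1 list of intervals. No list gave read counts, so the depth is unknown, no replicate spread can be given, and nothing below is a test of hypoxia against normoxia.

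Acetylation of histone H3 at lysine 27 marks active enhancers and active promoters, and trimethylation at lysine 4 marks promoters. Most acetylated sites are narrow and surround a single start or enhancer. Where many enhancers lie close together, as in the clusters called super-enhancers or stretch enhancers, the mark can cover long stretches, with or without breaks. Such stretches are known to lie at genes that define a cell type. In mesenchymal cells these include genes of the extracellular matrix, the contractile cytoskeleton and lineage transcription factors. The domains here were chosen by width alone and were not called as super-enhancers.

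The normoxia H3K27ac list held 14832 intervals over 87.9 Mb and the hypoxia list 15203 intervals over 89.8 Mb. All boundaries fell on a grid of 500 bp, and the lists were not cut independently of each other. Of 674 places where touching H3K27ac intervals met inside a broad domain, 672 lay at an end of an H3K4me3 interval, so the number of intervals in a domain mostly counts H3K4me3 edges. The cell label was checked against marker genes. Of 12 MSC markers 7 had a start in normoxic H3K27ac of any width, against 1 of 11 blood markers and 0 of 10 endothelial, 0 of 8 epithelial, 0 of 8 skeletal muscle and 0 of 8 neural markers. The MSC share was 58.3%, against 36.4% of all 21951 coding genes, and the marker lists are small. The blood marker was Csf1r, a receptor of macrophages, in a domain of 5500 bp. MSC markers without H3K27ac at a start were Eng, Nt5e, Lepr, Mcam and Alcam. The sort markers Pdgfra, which encodes CD140a, and Ly6a, which encodes Sca-1, had starts in domains of 9000 and 10500 bp and so lay below the limit, whereas Pdgfrb and Cd44 lay in broad domains of 50500 and 39000 bp.

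Sequences are shown from gene starts in broad domains and from the bodies of the domains. The first set is the 250 bases before a RefSeq start (GRCm38.p6, the build of the files) in some of the widest domains, with each CG dinucleotide in capitals, because the domains differ in whether their start is rich in CG.

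Cald1, chr6:34598254-34598503, plus strand: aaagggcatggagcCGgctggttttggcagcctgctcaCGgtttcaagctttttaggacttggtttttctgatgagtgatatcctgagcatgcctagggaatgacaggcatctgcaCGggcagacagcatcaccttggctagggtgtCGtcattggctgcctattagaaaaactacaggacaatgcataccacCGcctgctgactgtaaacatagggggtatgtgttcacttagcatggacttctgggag
Fndc3b, chr3:27710453-27710702, minus strand: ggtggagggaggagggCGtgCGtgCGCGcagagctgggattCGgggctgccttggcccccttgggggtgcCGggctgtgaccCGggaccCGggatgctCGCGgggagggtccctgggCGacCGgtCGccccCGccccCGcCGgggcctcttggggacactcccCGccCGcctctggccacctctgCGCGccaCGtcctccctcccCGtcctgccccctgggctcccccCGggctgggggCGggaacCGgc
Actn1, chr12:80260364-80260613, minus strand: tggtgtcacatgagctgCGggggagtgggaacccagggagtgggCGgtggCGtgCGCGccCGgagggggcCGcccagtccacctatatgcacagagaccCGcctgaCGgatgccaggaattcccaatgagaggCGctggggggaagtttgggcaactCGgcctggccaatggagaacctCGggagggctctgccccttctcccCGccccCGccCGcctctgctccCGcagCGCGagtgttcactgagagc
Runx1, chr16:92697330-92697579, minus strand: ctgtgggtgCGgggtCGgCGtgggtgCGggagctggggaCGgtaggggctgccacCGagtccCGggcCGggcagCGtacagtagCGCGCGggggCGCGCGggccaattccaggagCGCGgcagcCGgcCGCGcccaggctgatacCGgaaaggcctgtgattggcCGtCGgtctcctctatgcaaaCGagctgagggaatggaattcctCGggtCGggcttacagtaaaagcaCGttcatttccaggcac

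The stretch before Cald1 held 5 CG, that before Actn1 18, that before Fndc3b 25 and that before Runx1 27. All 4 starts lay in H3K4me3. In the whole promoter windows of 300 bases, 250 before and 50 after the start, the median number of CG was 16 over 704 windows of 560 genes in broad domains, 23 over 8597 windows in other H3K27ac and 7 over all 32851 windows. Starts in broad domains thus held fewer CG than other acetylated starts and more than the annotation as a whole. Windows were counted whether or not the start lay in H3K4me3, so this is not a comparison of main promoters alone.

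The second set comes from the body of the domains, outside H3K4me3 and outside any annotated exon. Each is the 300 bases with the densest matches to TGANTCA in a domain of a matrix gene and of an osteogenic transcription factor, with the matches in capitals. TGANTCA is a loose form of the site of AP-1 (dimers of Fos and Jun proteins), which has C or G as its middle base. They were chosen after their values were seen.

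Fn1 intron, chr1:71591435-71591734, plus strand: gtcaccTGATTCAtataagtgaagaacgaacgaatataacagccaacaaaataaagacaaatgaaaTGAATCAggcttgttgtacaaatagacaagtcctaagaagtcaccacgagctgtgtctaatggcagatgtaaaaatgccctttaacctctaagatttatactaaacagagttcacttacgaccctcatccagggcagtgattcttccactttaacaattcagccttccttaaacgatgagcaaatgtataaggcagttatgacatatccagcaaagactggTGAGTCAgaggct
Runx2 intron, chr17:44654383-44654682, plus strand: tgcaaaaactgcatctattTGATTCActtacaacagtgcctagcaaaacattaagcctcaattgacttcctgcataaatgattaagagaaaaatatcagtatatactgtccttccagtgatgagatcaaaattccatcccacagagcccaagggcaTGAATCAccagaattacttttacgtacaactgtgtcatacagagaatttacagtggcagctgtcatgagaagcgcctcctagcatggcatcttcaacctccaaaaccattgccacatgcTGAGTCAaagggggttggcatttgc

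Each of these windows held 3 matches. Of 89433 windows of 300 bases tiled over the broad domains, 9.31% held at least 1 match and 0.0302% held 3 or more. In the 199889 windows tiled over the other merged domains the shares were 9.49% and 0.0315%, so fixed windows this dense were about equally rare in both sets. The windows shown were instead placed at the densest matches. Placed in this way, the densest window held 3 matches in 63 broad domains, 4 in 3 and 9 in 1. No such placement was made in the other domains.

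The third set is the mature microRNAs of the hairpins that broad domains hold, with the seed, bases 2 to 8, in capitals. Those shown belong to clusters whose members share a seed or that are known from fibroblasts and bone.

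mmu-miR-27b-3p: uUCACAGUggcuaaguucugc
mmu-miR-27a-3p: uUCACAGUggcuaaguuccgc
mmu-miR-24-3p: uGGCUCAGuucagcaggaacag
mmu-miR-23a-3p: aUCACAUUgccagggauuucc
mmu-miR-29a-3p: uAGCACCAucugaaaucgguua
mmu-miR-29b-3p: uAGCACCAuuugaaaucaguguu
mmu-let-7b-5p: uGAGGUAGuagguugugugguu
mmu-let-7c-5p: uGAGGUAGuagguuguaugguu
mmu-miR-196a-5p: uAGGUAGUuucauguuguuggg
mmu-miR-196b-5p: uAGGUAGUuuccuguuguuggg
mmu-miR-21a-5p: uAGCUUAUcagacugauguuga
mmu-miR-125b-5p: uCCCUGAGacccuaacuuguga

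The same seed stood in miR-27a and miR-27b, in miR-29a and miR-29b, in let-7b and let-7c, and in miR-196a and miR-196b. The hairpins of miR-27a and miR-27b lay in separate broad domains on chromosomes 8 and 13, and each of those domains also held a hairpin that gives miR-24-3p.

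Together the 749 domains spanned 26.9 Mb and held 30.5% of all bases in the normoxia H3K27ac list. Their median width was 29000 bp, with quartiles of 23000 and 40000 bp, and the widest reached 186000 bp. By comparison, the other 11795 merged domains had a median of 3500 bp. In the narrowest class, 20000 to under 30000 bp, there were 401 domains, followed by 224 of 30000 to under 50000 bp, 107 of 50000 to under 100000 bp and 17 of 100000 bp or more. Joining across gaps contributed little. Gaps were present in 53 domains and added 41500 bp in all, and 323 domains were a single interval. The width limit fell in a continuous distribution, as the histogram of widths shows: 37 domains were exactly 20000 bp and 35 were 19500 bp. Just inside the limit were domains at Il1r1, at Tmbim1 and Pnkd, and at Klhdc8a, with H3K4me3 over 0%, 17.5% and 15% of their span. Just outside it were domains at Tulp3, at Hnrnpl and Ech1, and within Igf1r, with 15.4%, 41.0% and 0%.

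**Figure D1:**
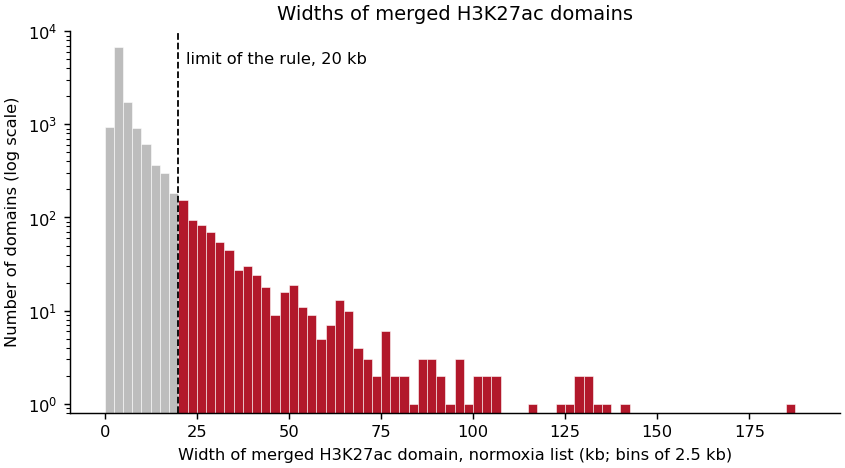
Number of merged H3K27ac domains of the normoxia list (vertical axis, log scale) by width in kb (horizontal axis, bins of 2.5 kb), with the 749 broad domains in red and the other 11795 in grey. The dashed line is the limit of the rule, which cuts a continuous tail that ends with 1 domain of 186000 bp.

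Broad domains were found on every autosome but not on the X chromosome, where 0 of 177 merged domains reached the limit and the widest was 17500 bp, or on the Y chromosome, which had 1 merged domain. Among autosomes the share of merged domains that were broad ran from 3.11% on chromosome 13 to 9.86% on chromosome 15. Some broad domains lay near each other, although the median distance to the nearest other broad domain was 229000 bp. Of the 749, 231 had another broad domain within 50000 bp and 111 within 10000 bp. In 27 pairs the gap was 3000 bp or less, and 23 of these pairs lay in a single gene, including Col5a1, Col5a2, Egfr, Foxp1, Bicc1, Tns3 and Lrp6. None of those 27 gaps was filled by H3K4me3. Neighbouring domains are therefore not independent observations.

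The widest domain was that of Cald1, which encodes the actin-binding protein caldesmon: its domain of 186000 bp (chr6:34596001-34782000) covered all 176974 bp of the gene and ended at the start of the neighbouring gene Agbl3. Fndc3b, which encodes a membrane protein with fibronectin type III repeats, had 2 of the 6 widest domains, of 141500 bp (chr3:27570501-27712000) and 130000 bp (chr3:27427001-27557000), and together they covered 91.8% of its 295146 bp. Col12a1, a collagen that associates with fibrils, was wholly covered by a domain of 136000 bp. Col5a1, a fibrillar collagen, had a domain of 125500 bp over its body and a separate one of 35500 bp at its start, 1500 bp away, which together covered 99.0% of the gene. The remaining domains over 100000 bp were those at Rpl27a and St5 (132500 bp), Mbnl2, a splicing regulator (132000 bp), Pdlim5, a PDZ and LIM domain protein of actin filaments (129000 bp), Adamtsl3, a secreted ADAMTS-like protein (128500 bp), Sept9, a septin (124500 bp), Ski, a co-repressor of SMAD signalling (116000 bp), Nfix, a nuclear factor I transcription factor, with Lyl1 and G430095P16Rik (107000 bp), Svep1, a large extracellular protein (105500 bp), Zmiz1, a transcriptional coactivator (104500 bp), Fat1, a protocadherin (103500 bp), Sept11, a second septin (101000 bp), and Actn1, alpha-actinin (100500 bp). Completing the 20 widest were Tgfbr3, the TGF-beta co-receptor betaglycan (98000 bp), 2010111I01Rik (97000 bp), and Mrtfa, a coactivator of serum response factor that responds to actin (95500 bp).

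Of these 20 domains, 15 held a coding start and 15 held H3K4me3. Mrtfa had a start without H3K4me3, and 2010111I01Rik had H3K4me3 without a coding start. In hypoxia all 20 were wholly covered by H3K27ac, and 19 had the same width. The exception was the domain within Adamtsl3, which measured 132000 bp in hypoxia.

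**Figure D2:**
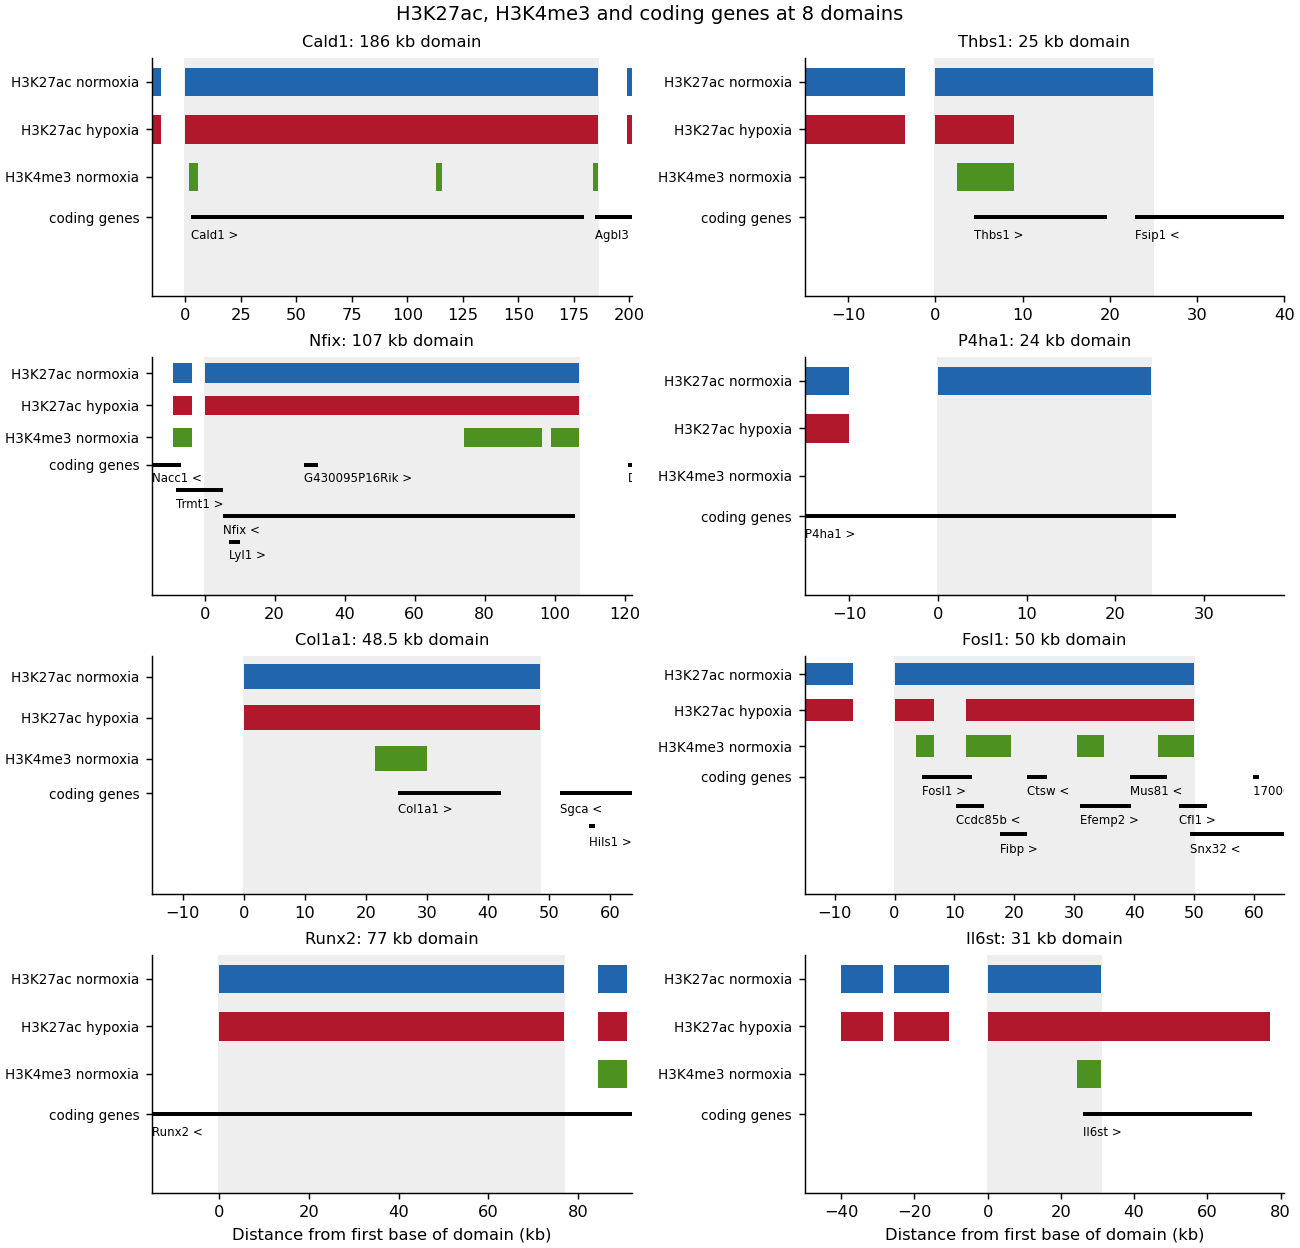
Maps of 8 domains, with distance in kb from the first base of the domain on the horizontal axis and, from top to bottom, H3K27ac in normoxia (blue), H3K27ac in hypoxia (red), H3K4me3 in normoxia (green) and protein-coding genes (black, with > or < for the strand). The grey area is the broad normoxia domain. At Cald1, Nfix, Col1a1 and Runx2 the blue and red bars end together, at Thbs1, P4ha1 and Fosl1 the red bar is shorter or absent, and at Il6st it is longer.

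Within the domains, H3K4me3 formed short islands in a long acetylated stretch. It was present in 402 of 749 domains, or 53.7% (95% Wilson interval 50.1 to 57.2%, which covers counting error only), near the 56.5% of all merged domains. It covered 9.34% of the span of broad domains and 35.2% of the span of the others. A single island was present in 323 domains, 2 islands in 63, 3 in 15 and 4 in 1. In domains with H3K4me3 the widest island had a median of 4500 bp, with quartiles of 3500 and 6000 bp. Counted per length, broad domains had 1.85 islands per 100 kb and other merged domains 11.1. The 347 domains without H3K4me3 were mostly far from it: 11 touched an island at an end and 31 had one within 5000 bp.

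Width classes moved in opposite directions for presence and for content. From the narrowest to the widest class of broad domains, the share holding H3K4me3 was 49.9%, 52.2%, 66.4% and 82.4%, while the span under H3K4me3 was 11.2%, 9.81%, 7.24% and 5.70%. In the widest class the interval on the first share ran from 59.0 to 93.8%, because it held 17 domains, and it overlaps that of the class before it, 56.97 to 74.6%. Merged domains under 5000 bp stood at 69.2% and 64.8%, so the share holding H3K4me3 was lowest at intermediate widths, with 30.7% at 5000 to under 10000 bp.

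**Figure D3:**
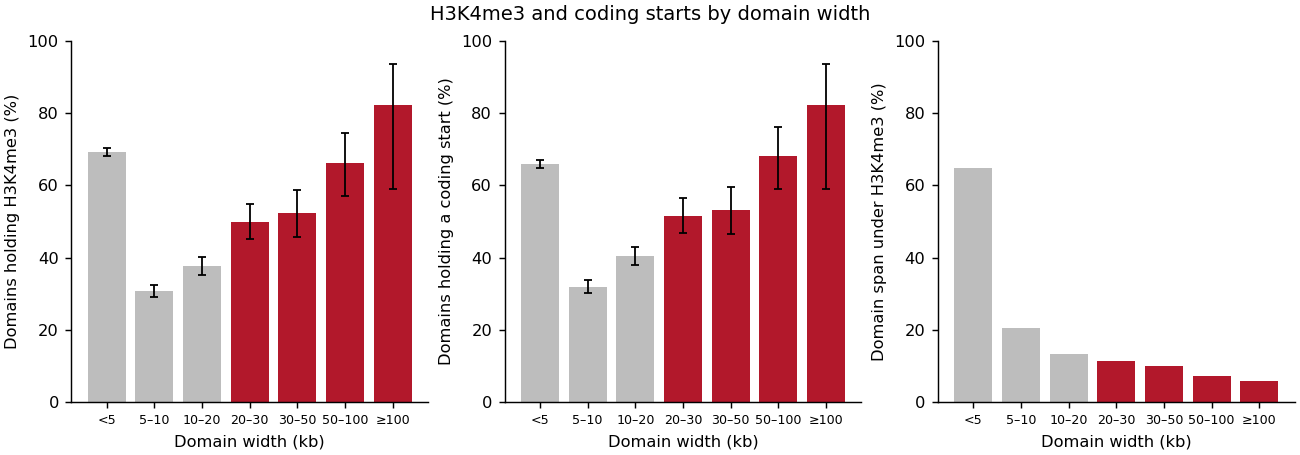
H3K4me3 and coding starts by width of the merged normoxia H3K27ac domain (horizontal axis, kb): percent of domains holding H3K4me3, percent holding a coding start, and percent of domain span under H3K4me3. Broad classes are red, narrower ones grey, and black lines are 95% Wilson intervals. Presence rises from 49.9% to 82.4% over the broad classes as the covered span falls from 11.2% to 5.70%.

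A few broad domains were mostly H3K4me3. It covered 25% or more of the span in 85 domains and 50% or more in 13. The highest share, 95.9%, was at Bcl9l, a cofactor of beta-catenin, in a domain of 24500 bp. The Hoxa3 to Hoxa11 domain (chr6:52209001-52254500) followed with 89.0% of 45500 bp, then Plec, which encodes the cytolinker plectin, with 79.6% of 24500 bp, the Hoxc8 to Hoxc11 domain with 75.9% of 39500 bp, and Irf2bpl, a nuclear regulator, with 75.6% of 20500 bp. Nfix had the largest H3K4me3 content of the 20 widest domains, 30500 bp or 28.5% of its span. The H3K4me3 intervals in the domains were the same at both oxygen levels, with 0 bp changed, as they were in the other merged domains. The whole H3K4me3 lists were nearly the same, with 14603 intervals in normoxia and 14606 in hypoxia. As the lists were cut together, this is a property of the calls, and nothing on the level of H3K4me3 is read from it.

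Coding starts followed H3K4me3 closely. At least 1 start of a protein-coding gene (GENCODE M21) lay in 413 domains, or 55.1% (51.6 to 58.7%), against 55.2% of all merged domains. Both a start and H3K4me3 were present in 377 domains and neither in 311. In 36 domains there was a start without H3K4me3, among them Mrtfa, Ptpn14, Peak1, Rxra and Sptbn1. These starts include those of alternative transcripts of the annotation. In 25 domains there was H3K4me3 without a coding start. The widest of these were the 2010111I01Rik domain, the Vmp1 domain of 91500 bp, the Lncpint domain of 77500 bp and the domain of 61000 bp over the noncoding RNAs Neat1 and Malat1.

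Few domains held many genes. A single gene started in 329 of them and more than 1 in 84. The most crowded was the domain of 50000 bp on chr19:5443001-5493000, with starts of Fosl1, Ccdc85b, Fibp, Ctsw, Efemp2, Mus81 and Cfl1. Next came 3 domains with 6 starts each, at Hoxa, at Med22, Rpl7a, Surf1, Surf2, Surf4 and Stkld1, and at Mvp, Pagr1b, Pagr1a, Gm42742, Prrt2 and Maz, and a domain of 44500 bp with 5 starts, those of Rps16, Plekhg2, Zfp36, Med29 and Paf1. H3K4me3 covered 42.0%, 48.1%, 74.4% and 42.7% of the domains at Fosl1, Surf4, Maz and Zfp36.

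Measured from the most upstream annotated start of the gene in the domain, most of the acetylation lay downstream. Where a gene had several starts in the domain, this choice favours the downstream side. In the 329 domains with 1 coding gene start, the median distance to the upstream end was 1630 bp and to the downstream end 25757 bp, so that a median of 94.3% of the domain lay downstream of the start. The downstream side was longer in 288 of the 329 (87.5%). In other merged domains with 1 start the median downstream share was 62.3%, in the 476 with a width of 10000 to under 20000 bp it was 88.0%, and in the 65 such domains of 50000 bp or more it was 97.6%. Coding genes covered 84.0% of the span of broad domains and 65.6% of that of other merged domains. Only 66 broad domains (8.81%) overlapped no coding gene, against 19.4% of all merged domains. Wider domains have more sequence in which to meet a gene, and the genes they met were long, with a median of 49.5 kb for the 832 overlapped genes and 17.4 kb for all 21951 coding genes.

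Many genes were covered from end to end. At least 90% of the body lay in broad domains for 238 genes, and all of it for 216. The genes covered to 90% or more were mostly short, with a median length of 13.8 kb, and the long ones among them included Fndc3b, Cald1, Col5a1, Col5a2 (94.4% of 128962 bp), Col12a1, Nfix (100% of 100469 bp), Capzb, which encodes an actin-capping protein (90.1% of 98920 bp), Kirrel (90.2% of 96155 bp), Actn1 (100% of 92825 bp) and Myh9, the heavy chain of non-muscle myosin (100% of 81589 bp). Other long genes carried several separate domains. There were 84 genes with 2 or more and 20 with 3 or more, led by the gene model Gm20388, which spans 4434882 bp, and the transcription factor gene Foxp1 with 6 each and by Glis3, Tns3, Asap1, Maml2 and Bicc1 with 5 each.

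The 336 domains without a coding start lay a median of 32.2 kb from the nearest one, with quartiles of 15.4 and 76.0 kb and a maximum of 417 kb, and 64 were more than 100 kb away. Of the 336, 270 overlapped a coding gene. One was at Runx2, the transcription factor that directs osteoblast differentiation: its widest domain, 77000 bp without H3K4me3, lay inside the gene. The widest domain at any of its annotated starts, which include those of alternative transcripts, measured 6500 bp. Vcl, the gene of the adhesion protein vinculin, had a domain of 86500 bp with no start, and Fbn1, the gene of the microfibril protein fibrillin, one of 77000 bp. Of the 66 domains that overlapped no coding gene, 37 overlapped a long noncoding gene and 13 held H3K4me3. The widest of them were on Lncpint (77500 bp, chr6:31050501-31128000), on Pvt1 (64500 bp, chr15:62103001-62167500, with a second domain of 47500 bp on the same gene) and on Lncppara (59000 bp, chr15:85652501-85711500, 51.7% under H3K4me3).

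Gene lists differed widely in how many members had a start in a broad domain. Over all coding genes the share was 2.45% (537 of 21951), and 36.4% had a start in H3K27ac of any width. Among the coding genes with a start in H3K27ac, 6.73% had one in a broad domain. By that measure the shares were 53.8% for collagens, 42.3% for the actin cytoskeleton and contraction list and 42.9% for the TGF-beta and BMP pathway. They were 9.09% for citrate and acetyl-CoA, 5% for the hypoxia response and 0% for the osteogenic list. The lists were chosen with earlier results of these data known, so their counts are a description.

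Among structural genes the counts were high. Of 19 collagens 7 had a start in a broad domain: Col12a1 (136000 bp), Col3a1 (51000 bp), Col1a1 (48500 bp), Col1a2 (40500 bp), Col5a1 (35500 bp), Col5a2 (28000 bp) and Col8a1 (22500 bp). Col1a1 and Col1a2 encode the chains of type I collagen, the main protein of bone matrix. Col4a1, Col4a2, Col14a1, Col15a1, Col18a1 and Col5a3 had no H3K27ac at a start. Of 26 genes of the other matrix and matricellular proteins 9 had such a start. Among them were Fn1 (80000 bp), the gene of fibronectin, the protease inhibitors Timp3 (61500 bp) and Timp2 (54500 bp), Sparc (58500 bp), which encodes osteonectin, Mmp2 (30000 bp), Lox (26000 bp), which cross-links collagen, Thbs1 (25000 bp) and Fstl1 (20500 bp). Of 26 genes of the actin cytoskeleton and contraction list all had a start in H3K27ac and 11 in a broad domain. The list also holds the intermediate filament genes Lmna and Vim. After Cald1 and Actn1 the starts in broad domains were those of Myh9 (89500 bp), Palld (85500 bp), Actn4 (75500 bp), Lmna (50500 bp), Cnn3 (50000 bp), Tpm1 (46000 bp), Lpp (40500 bp), Tpm4 (29000 bp) and Actb (20000 bp). Of 20 genes of integrins and adhesion 8 had one, from Itga1 (54500 bp) and Bcar1 (46500 bp) to Lama4 (22500 bp).

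Signalling and transcription genes of the mesenchyme had similar counts. In the TGF-beta and BMP pathway it was 9 of 22. Ligands and receptors were Tgfb3 (35500 bp), Tgfbr3 (30500 bp at the start), Tgfbr2 (28500 bp), Bmpr1a (28000 bp) and Acvr1 (24000 bp), and inhibitors were Ski, Smad6 (84000 bp), Smad7 (41000 bp) and Tgif1 (23000 bp). The YAP and TEAD list held 14 genes, both effectors of the Hippo pathway and regulators of them. Of these, 5 had such a start: Lats2 (65000 bp), Vgll3 (60500 bp), Tead1 (48000 bp), Amotl2 (25000 bp) and Tead3 (20000 bp). A further 3, Vgll4, Yap1 and Wwtr1, had a broad domain in the body only. Of 36 mesenchymal transcription factors 11 had one, the widest at Nfix (107000 bp), Runx1 (94500 bp), Prrx1 (66000 bp) and Prrx2 (48000 bp). The AP-1 family had 3 of 12, Fosl1 (50000 bp), Fosl2 (32000 bp) and Junb (22000 bp), while Jun and Fos lay in domains of 5500 and 4500 bp.

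In the lineage and metabolic lists the counts were smaller, and in lists of this size a count of 0 or 1 cannot be told apart from the 2.45% of all coding genes. Of 21 osteogenic genes none had a start in a broad domain, and 6 had one in H3K27ac of any width, from Atf4 and Omd (10500 bp each) and Bmp4 (7000 bp) to Dlx5 (4500 bp). Sp7, Alpl, Bglap, Spp1 and Ibsp, which encode an osteoblast transcription factor and proteins of mineralizing bone, had no H3K27ac at a start at either oxygen level. Of 15 adipogenic genes none had a broad domain at a start, and of 13 chondrogenic genes only Trps1 did (26500 bp). Of 24 genes of the hypoxia response 20 had a start in H3K27ac and 1, the glucose transporter gene Slc2a1 (22000 bp), in a broad domain. Of 14 genes of citrate and acetyl-CoA metabolism and of histone acetylation 11 had a start in H3K27ac. Counts were 2 of 20 for the Wnt pathway (Dkk3 and Tcf7l2), 2 of 23 for growth factor receptors and signalling (Egfr and Pdgfrb) and 2 of 12 for MSC markers. None of the blood, endothelial, epithelial, skeletal muscle and neural markers had one.

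**Figure D4:**
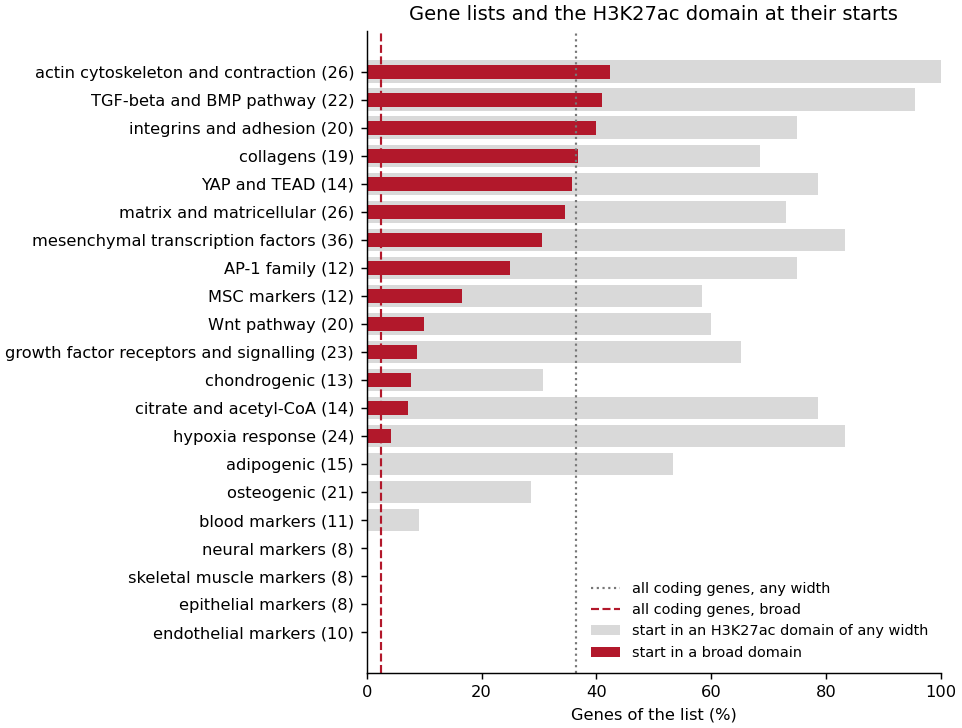
Percent of the genes of each list (number of genes in parentheses) with a start in a broad normoxia H3K27ac domain (red bars) or in one of any width (grey bars). Lines give the same for all coding genes, 2.45% for broad domains and 36.4% for any width, and the actin, TGF-beta, integrin and collagen lists reach between 36.8% and 42.3% for broad domains while the osteogenic and adipogenic lists are at 0%.

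Broad domains also held 46 of 1005 microRNA hairpins (4.58%), in 35 domains, and 27.2% of the 169 hairpins that lay in any merged domain. That share was no higher than the 30.5% of H3K27ac bases that broad domains held. Mir23b, Mir27b, Mir24-1 and Mir3074-1 lay together in the 2010111I01Rik domain of 97000 bp, and Mir23a, Mir27a, Mir24-2 and Mir3074-2 in a domain of 26000 bp at Zswim4. Mir21a, known for its high level in fibroblasts, lay in H3K4me3 in the Vmp1 domain. Mir29a and Mir29b-1, whose mature forms are known to target collagen mRNAs, lay in the Lncpint domain. Mirlet7b and Mirlet7c-2 shared the domain of 59000 bp on Lncppara, and Mirlet7a-2 and Mir100 shared one of 22500 bp, 28500 bp from the domain of 40000 bp that held Mir125b-1. Mir196b and Mir196a-2 lay in the Hoxa and Hoxc domains. Mir193a and Mir365-2 shared a domain of 30500 bp, Mir34a lay in one of 25500 bp and Mir199a-1 in one of 24500 bp. The other hairpins were Mir3092, Mir3075, Mir6933, Mir6901, Mir6995, Mir1905, Mir3095, Mir3109, Mir1843a, Mir1191b, Mir8101, Mir3089, Mir6896, Mir6921, Mir6922, Mir6944, Mir1291, Mir1931, Mir6963, Mir6962, Mir3100, Mir688, Mir5123 and Mir7017. Every domain with a hairpin was wholly covered by H3K27ac in hypoxia, as were 98.7% of all broad domains. A hairpin in a domain says nothing of whether the microRNA was made, since RNA is not in these lists.

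Nearly all of the broad domains were also called in hypoxia. Of their H3K27ac bases in normoxia, 99.6% were also in the hypoxia list, and in the other merged domains 98.5% were. All bases were covered in 739 domains, or 98.7% (97.6 to 99.3%). The 10 domains not wholly covered are 1.34%, near the 1.73% of all merged domains. The ends were identical at both oxygen levels in 714 domains (95.3%), and 744 (99.3%) overlapped a domain that also reached 20000 bp in hypoxia. As the lists were cut together, identical ends are a property of the calls and not 2 independent measurements.

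The 10 exceptions together lacked 116 kb in hypoxia. P4ha1, which encodes a subunit of the prolyl hydroxylase that modifies collagen, had a domain of 24000 bp within the gene (chr10:59346501-59370500) that was absent in hypoxia, while the domain of 15500 bp at its start was the same at both oxygen levels. Nptn, the gene of the adhesion protein neuroplastin, had a domain of 23500 bp (chr9:58606001-58629500) that was also absent. At Bag6 and Prrc2a 26.2% of 32500 bp was covered in hypoxia (chr17:35134001-35166500), and at Thbs1, which encodes the matricellular protein thrombospondin 1, 36% of 25000 bp (chr2:118107501-118132500). The part that remained at Thbs1 was the 9000 bp with the start and the H3K4me3 island. At Phlda3 67.2% was covered, at Iqsec1 84.3%, at Tcf4 86.3% and at Tubb6 95.2%. The crowded Fosl1 to Cfl1 domain was covered to 89.0% and was split in 2 in hypoxia, with 6500 bp left at the Fosl1 start. At Mbnl1 93.1% was covered, and the domain there was wider in hypoxia, 46000 bp against 36000 bp. Of the 116 kb of broad domain called in normoxia only, 1.0 kb (0.862%) lay in H3K4me3, against 9.39% of the bases called at both oxygen levels.

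Because members chosen for their width in normoxia cannot show a domain that was broad in hypoxia alone, the rule was also run from the hypoxia list. It gave 764 domains over 27.5 Mb, of which 20 had no counterpart of 20000 bp in normoxia, and 98.2% of their H3K27ac bases were in the normoxia list. Of the 764, 41 had a narrower counterpart in normoxia, 6 had none and 3 had a wider one. Domains built from both lists together numbered 769, of which 48 had more H3K27ac bases in hypoxia, 9 had more in normoxia and 712 had the same number. In them 494.5 kb was called in hypoxia only, 116 kb in normoxia only and 26.99 Mb at both. The 57 domains that differed had more bases on the hypoxia side in most cases, and so did the whole lists, with 589 intervals called in hypoxia only and 218 in normoxia only. Of the bases called at 1 oxygen level, 81.0% were hypoxia-only in these domains and 73.6% over the whole lists, and nothing particular to broad domains is read from this. Whether they exceed the spread between libraries cannot be told from 1 list per oxygen level.

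The 13 domains that were wider in hypoxia by 20000 bp or more are named here, a limit set after their values were seen. At Il6st, which encodes the shared receptor subunit of the interleukin-6 family, the domain measured 77000 bp in hypoxia and 31000 bp in normoxia, and the added stretch ran over the gene. A domain of 41000 bp at Stat3, the transcription factor downstream of that receptor, had no H3K27ac in normoxia. The same held for domains of 25000 bp in Ulk4, 22500 bp in Sybu, and 21500 bp each in Dst, in Fbn1 and in Rbpj. The domain at Wasf2 measured 4000 bp in normoxia and 32000 bp in hypoxia. At Cep68 the widths were 6500 and 31000 bp, at Plekhf1 9000 and 33500 bp and at Sptbn1 54500 and 78500 bp. At the Hoxc5 to Hoxc11 cluster a domain of 62000 bp in hypoxia stood where normoxia had 2 domains, the wider of 39500 bp. The normoxia domains together held 58000 bp of H3K27ac there, so the difference in width comes mostly from a gap between them. Among collagens, Col6a1 stood at 9000 bp in normoxia and 29000 bp in hypoxia. Of the 494.5 kb, 34.5 kb lay in H3K4me3.

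**Figure D5:**
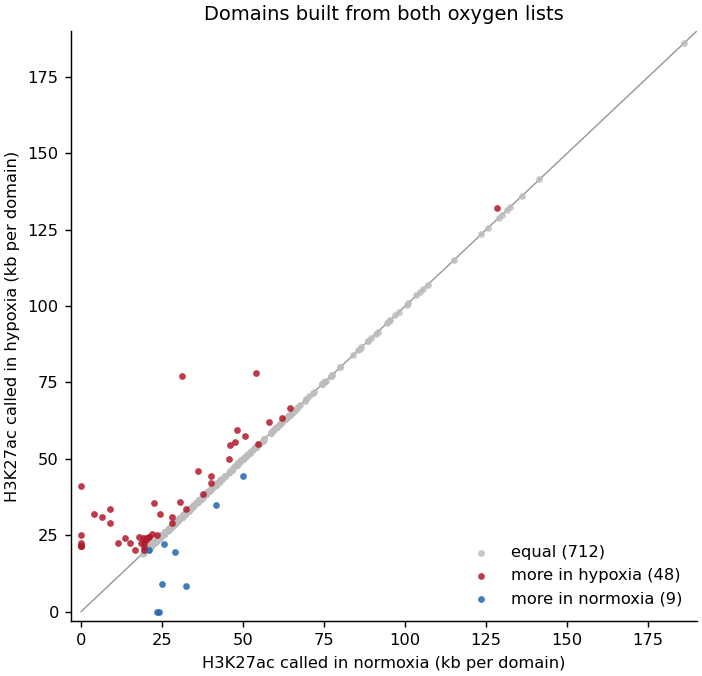
Bases called as H3K27ac in normoxia (horizontal axis, kb) and in hypoxia (vertical axis, kb) in each of 769 domains built from both lists together and 20000 bp or wider. Grey points on the diagonal are 712 domains with the same number of bases, red points 48 with more in hypoxia and blue points 9 with more in normoxia. The differences lie among domains of small and middle width, apart from 1 red point near 130 kb.

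Each interval carries a score, whose definition is not given in the sources used here. In all lists it ran from 50 to 160 or stood at a ceiling of 1000. Of 1470 intervals of broad domains present at both oxygen levels, 1005 were below the ceiling at both. Their median score was 112 in hypoxia and 102 in normoxia, with a median difference of 1 (quartiles 0 and 10). The score was higher in hypoxia for 506 intervals (50.3%), higher in normoxia for 225 and equal for 274. Elsewhere the medians over 10010 intervals were 91.5 and 85, and 45.2% were higher in hypoxia. The lists are separate calls with no stated scale, so the scores are given as deposited and no difference in acetylation level is drawn from them. The width-weighted mean score per domain, which includes intervals at the ceiling, had a median of 126 in broad domains and 102 in the others. An interval at the ceiling was present in 263 of 749 broad domains and 2362 of the 11795 others, so these medians are not compared further.

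In base composition broad domains resembled narrower acetylated DNA once promoters were set aside. GC content was 46.7% in broad domains, 47.8% in other merged domains and 41.7% in the genome. CG dinucleotides numbered 13.2 per kb in broad and 21.2 per kb in other domains, but outside H3K4me3 the values were 11.3 and 10.8 per kb. Matches to short motifs were counted on both strands outside H3K4me3. TGANTCA, the AP-1 site with any middle base, had 0.343 matches per kb in broad domains, 0.409 in the others and 0.318 in the whole genome. GGAATG (TEAD) had 0.611 and 0.647, TGTGGT (RUNX) 0.907 and 0.914, and ACGTG (the core of the hypoxia-inducible factor site) 0.694 and 0.649 per kb in broad and other domains. Per base, then, broad domains were no richer in TGANTCA or GGAATG than narrow ones. In the promoter windows TGANTCA stood in 7.95% of those in broad domains and 7.81% of all, GGAATG in 17.2% and 14.7%, TGTGGT in 14.9% and 16.8%, and ACGTG in 21.0% and 19.6%. A match is a string of letters and does not show that a factor was bound.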

How the data were processed

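H3K27ac, H3K4me3 and input ChIP-seq libraries (12 libraries, 6 groups of 2, grouped by the labels' titles) came from mouse MSCs in 2% or 21% O2. Per the labels and the study's methods, the authors used Bowtie2 for alignment to mm10, Picard for duplicate removal and chromstaR for calling in differential mode between oxygen levels, pooling both libraries of a group (versions not given in the sources used here). The deposited values are interval positions and a score per interval, from 50 to 160 or 1000, whose definition is not stated. They hold no counts, so depth and the error it gives are unknown.

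Normoxia H3K27ac intervals were joined over gaps of 1000 bp or less and kept at 20000 bp or wider. Python 3.11.15 (numpy 2.4.6, pandas 2.3.3, scipy 1.17.1) computed overlaps on 500-bp bins, coding genes and transcript starts from GENCODE M21 basic (GRCm38, equal to mm10) and sequences from RefSeq GRCm38.p6, whose promoter table matched the genome in 32851 of 32851 windows. All 358 symbols of the gene lists were found. Shares carry 95% Wilson intervals for counting error only. No test was made, since each mark and oxygen level has 1 list. The merging and overlap steps were tested on simulated intervals. Alternatives changed the gap, the width limit, the lowest-scoring 25% of intervals, the starting list, the chromosomes and the gene models.

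Genes were named by rule: those of the 20 widest domains, of the 5 with most coding starts and the 5 with most H3K4me3, of domains not wholly covered in hypoxia and of those beside the width limit, up to 12 listed genes with a start in a domain, and every microRNA hairpin. Any other gene in the text was picked with its values in view. Some listed genes are not reported here. The domains, gene lists and motifs were chosen with earlier results of these data known.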

Additional observations from a re-analysis of the deposited data

How the results depend on the processing

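Limits of these results are that each list pools 2 libraries, so leaving out a replicate was not possible, and that both oxygen levels and both marks were segmented together. No paired analysis was possible because the lists do not keep the libraries of a group apart. Comparisons with all merged domains did turn direction with the width limit. Of all merged domains, 56.5% held H3K4me3 and 55.2% a coding start. The shares of broad domains lay below these at 15000 bp and above them at 30000 bp. A width limit of 15000 bp gave 1236 broad domains and one of 30000 bp 348. The share of H3K27ac bases was 29.7% with a gap of 0 bp, 36.0% with 5000 bp, 39.9% at 15000 bp, 19.7% at 30000 bp, 33.3% without the lowest-scoring 25% of intervals and 30.8% on autosomes. The bases covered in hypoxia were 99.4% at 15000 bp, 99.8% at 30000 bp and 99.98% without the lowest-scoring intervals, and 98.2% of the bases of domains built from the hypoxia list were covered in normoxia. Wholly covered domains were 99.8% without the lowest-scoring intervals and 93.7% from the hypoxia list, and domains broad at the other oxygen level 100% and 97.4%. With a gap of 5000 bp, limits of 15000 and 30000 bp, and without the lowest-scoring intervals, domains with H3K4me3 were 58.5%, 49.4%, 58.0% and 49.5%, the span under H3K4me3 was 9.69%, 10.2%, 8.28% and 8.52%, and domains with a coding start were 60.0%, 51.3%, 59.2% and 51.3%. With all genes of the annotation, starts were in 68.4% of domains and genes covered 88.4% of the span. Coding genes covered 84.5% with a gap of 0 bp, 81.6% with 5000 bp, 81.4% at 15000 bp, 86.1% at 30000 bp and, in an alternative chosen after seeing the data, 83.4% without gene models over 1 Mb. A second such alternative built domains from both lists. The cause of these shifts was not tested.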
